A study of Mus musculus with 14 samples.

Results

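The unfolded protein response and the integrated stress response were followed through 34 genes in mouse skin labelled as a NEDD8 knockout of the epidermis, treated with imiquimod, or both. The genes were chosen by name as known members of these pathways, at a time when earlier results of these data were known. All 34 were found among the 56953 genes of the count table. All 34 also passed the filter on low counts that left 16027 genes to test. Of these, 15 form the ATF4 branch, split into 6 enzymes of amino acid and one-carbon metabolism and 9 other genes. Those 9 are called regulators for short, but the group is mixed and also holds genes of other function, such as Chac1 and Vldlr. The other 19 form the endoplasmic reticulum (ER) branch, with 11 chaperones and folding enzymes, 4 genes of ER-associated degradation and 4 sensors or their transcription factors.

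Misfolded protein in the ER is sensed by the membrane proteins IRE1 (Ern1), PERK (Eif2ak3) and ATF6 (Atf6), which raise ER chaperones, folding enzymes and the machinery that removes misfolded protein. PERK is also a member of the family of kinases that phosphorylate the translation factor eIF2 in the integrated stress response. That step lowers protein synthesis in general while it favours translation of the transcription factor ATF4, whose targets make and import amino acids, supply one-carbon units and, in feedback, reverse the phosphorylation. NEDD8 is a ubiquitin-like protein that activates cullin ubiquitin ligases, and imiquimod is an agonist of Toll-like receptor 7 whose cream produces a psoriasis-like inflammation in mouse skin.

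The 14 libraries fell into 6 groups. Wild-type C57BL/6J mice gave 2 DMSO and 2 imiquimod libraries. Mice with floxed NEDD8 alleles (NEDD8fl/fl) that were negative for K14-CreERT, called Cre-negative, gave 3 DMSO and 2 imiquimod libraries, and mice with the same alleles that were positive for K14-CreERT, called knockout, gave 3 and 2. Knockout mice were induced on 5 consecutive days before the experiment, with an agent that the labels do not name, and imiquimod mice received Aldara cream (5% imiquimod) daily from day 0 to day 7. The K14 promoter drives Cre in basal keratinocytes and their descendants, so other skin cells keep the gene. The series' own design note describes something else, a NEDD8 inhibitor or DMSO put on the back skin of wild-type animals over 3 days. No library analysed here carries a label of that kind, and the groups follow the sample labels. The labels do not say how long DMSO was given, the age of the mice, or which libraries came from back or ear. They also do not say that replicates came from separate mice, so that p-values measure the spread between libraries, which may be technical.

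Library totals ran from 5552954 to 34362477 counts, and 18S ribosomal RNA took 3.84% to 19.1% of them. Read from Xist and 4 Y-linked genes, the wild-type and knockout DMSO libraries were all female, both imiquimod libraries of the Cre-negative and of the knockout group were male, and Cre-negative DMSO held 2 male libraries and 1 female. Wild-type imiquimod library 1, knockout DMSO library 1 and Cre-negative imiquimod library 2 stood apart, with scaling factors of 0.665, 0.708 and 0.713 against 0.902 or more elsewhere. Nedd8 stood at 375, 158 and 147 CPM (counts scaled to a common library size) in knockout DMSO and 308 and 151 CPM in knockout imiquimod skin, against 359.5, 289.7 and 291 CPM in Cre-negative DMSO and 314 and 461 CPM in Cre-negative imiquimod skin. It did not pass the test in either contrast of knockout with Cre-negative skin (edgeR adjusted p = 0.403 in DMSO and 0.326 in imiquimod). Libraries are 3′ tags of whole skin, and which exons were deleted is not stated in the labels, so this level does not check the genotype labels. Fewer cells of a type and less RNA per cell cannot be told apart in such bulk libraries.

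Markers of cell types also differed between the groups. Summed neutrophil markers were raised in every imiquimod and knockout group, and summed keratinocyte markers in each of these except knockout imiquimod skin. The summed level of 12 neutrophil markers was 77.1 to 708 CPM in the 5 DMSO control libraries, 17189.9 to 63358 CPM in knockout DMSO skin and 54249.5 to 192735 CPM in the imiquimod groups. The summed level of 10 keratinocyte markers was 11363 to 21201 CPM in the DMSO controls, 27449.9 to 44707 CPM in knockout DMSO skin, 21504 to 60704 CPM in wild-type and Cre-negative imiquimod skin and 10883 to 17590 CPM in knockout imiquimod skin. Between knockout and Cre-negative DMSO skin, 3 of 10 keratinocyte markers rose and 2 fell, 9 of 12 neutrophil markers rose, 9 of 10 skeletal muscle markers fell and 9 of 10 sebocyte markers fell. Of 12 plasma and B cell markers, a cell type rich in ER, 8 could be tested, of which 1 rose and 4 fell. The sum of all 12 was 260.1 to 417 CPM in Cre-negative and 617 to 867 CPM in knockout DMSO skin. Sum and single genes thus went different ways, and Cd79a and Mzb1 were at 0 in both groups. The part of these cell types in the results that follow was not tested.

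**Figure D1:**
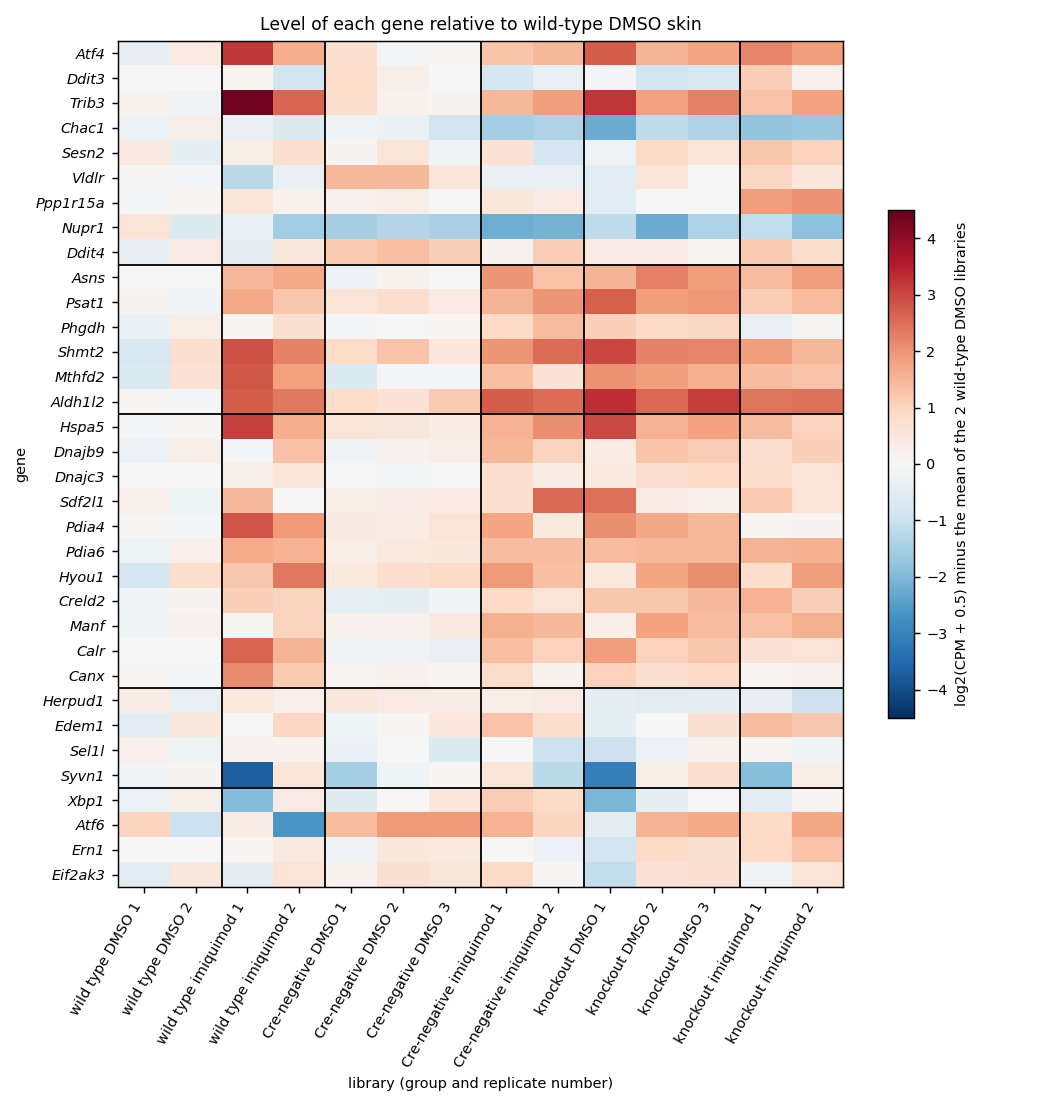
Each cell is the level of 1 gene (vertical axis) in 1 of 14 libraries (horizontal axis), as log2(CPM + 0.5) minus the mean of the 2 wild-type DMSO libraries; red is higher, blue lower, and horizontal lines part the ATF4 regulators, the amino acid and one-carbon enzymes, the ER chaperones, the ER degradation genes and the ER sensors. In 12 genes (Atf4, Trib3, Asns, Psat1, Shmt2, Mthfd2, Aldh1l2, Hspa5, Dnajc3, Pdia6, Creld2 and Calr) each of the 9 imiquimod or knockout libraries lies above all 5 DMSO control libraries, and in no gene do all 9 lie below. No such count over all genes stands beside this, and the genes were chosen with earlier results of these data known.

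In DMSO-treated skin without imiquimod, 16 of the 34 genes rose and 4 fell in knockout against Cre-negative skin, by the quasi-likelihood test of edgeR, Benjamini-Hochberg adjusted over all 16027 genes with a threshold of 0.05. Over all genes tested, 29.6% passed, 14% rising and 15.7% falling. The ATF4 branch had 8 genes that rose and 3 that fell of 15, with a median log2 fold change of 1.04, and the ER branch had 8 that rose and 1 that fell of 19, with a median of 0.81. The median over all genes tested was -0.06. In 18 of the 20 genes called, the 3 knockout libraries did not overlap the 3 Cre-negative libraries. No such count over all genes called stands beside it, so it only describes these libraries. Scaling by library size alone, which shifted the median of all genes by -0.35, turned 2243 genes up and 2509 down into 1183 and 3378, and 10 members rose and 5 fell.

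All 6 amino acid and one-carbon enzymes rose, with a median log2 fold change of 1.88. Aldh1l2, a mitochondrial enzyme that oxidises 10-formyltetrahydrofolate, was at 10.7, 6.11 and 9.30 CPM in the knockout libraries and at 1.51, 1.26 and 2.04 CPM in the Cre-negative ones, a log2 fold change of 2.43 ± 0.34 (SE; edgeR adjusted p = 0.000219). Asns (chr6:7675169-7693254, minus strand, GRCm39), which makes asparagine, was at 9.68, 16.3 and 12.3 CPM against 2.46, 3.39 and 3.06 CPM, a log2 fold change of 2.11 ± 0.32 (SE; edgeR adjusted p = 0.000416). For both genes the lowest knockout library was more than 2-fold above the highest Cre-negative library. Mthfd2, the mitochondrial methylenetetrahydrofolate dehydrogenase, was at 59.1, 53.6 and 43.7 CPM against 9.001, 13.1 and 13.4 CPM and rose by 2.13 ± 0.38 (SE; edgeR adjusted p = 0.00111). Shmt2, which moves one-carbon units from serine to folate in mitochondria, was at 101, 59.4 and 57.2 CPM against 21.97, 30.6 and 16.98 CPM and rose by 1.64 ± 0.40 (SE; edgeR adjusted p = 0.00796). Neither gene overlapped between the groups. The serine synthesis genes followed, Psat1 with 360.4, 207 and 217 CPM against 83.9, 96.1 and 70.8 CPM (log2 fold change 1.64 ± 0.29 SE, edgeR adjusted p = 0.00122) and Phgdh, the entry enzyme of that pathway, with 8.41, 7.38 and 7.58 CPM against 3.58, 3.72 and 4.01 CPM (log2 fold change 1.04 ± 0.32 SE, edgeR adjusted p = 0.0255). Phgdh had the smallest change of the 6 and the tightest knockout values.

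The mixed group of regulators in the same branch was split, with 2 that rose, 3 that fell and 4 that did not pass the test, around a median of -0.30. Atf4 itself (chr15:80139385-80141742, plus strand, GRCm39) was at 1378, 601 and 707 CPM in knockout and 339, 199.6 and 214 CPM in Cre-negative skin, a log2 fold change of 1.84 ± 0.44 (SE; edgeR adjusted p = 0.00757). Trib3, a pseudokinase that ATF4 induces and that dampens its activity, was at 73.1, 28.05 and 38.4 CPM against 13.2, 8.75 and 8.31 CPM and rose by 2.19 ± 0.45 (SE; edgeR adjusted p = 0.00305). In both genes the first knockout library, which stood apart in scaling, was the highest, and all 3 were above every Cre-negative library. Chac1, which degrades glutathione and is induced through ATF4, went the other way, with 0.509, 1.65 and 1.32 CPM against 3.80, 3.45 and 2.19 CPM and a log2 fold change of -1.33 ± 0.41 (SE; edgeR adjusted p = 0.0267). Ddit4, an inhibitor of mTORC1 signalling, had 88.9, 88.9 and 72.3 CPM against 155, 178 and 145 CPM and a log2 fold change of -0.94 ± 0.33 (SE; edgeR adjusted p = 0.046). Vldlr, a lipoprotein receptor, had 6.62, 14.5 and 9.44 CPM against 27.7, 26.9 and 13.8 CPM and a log2 fold change of -1.15 ± 0.37 (SE; edgeR adjusted p = 0.0321), with the second knockout library inside the Cre-negative range. Ddit3, which encodes the transcription factor CHOP, was at 12.5, 7.08 and 7.86 CPM against 23.5, 16.1 and 13.3 CPM and did not pass the test at -0.97 ± 0.37 (SE; edgeR adjusted p = 0.0643). It passed with the replicate number as a block, at -0.94 (edgeR adjusted p = 0.0442). Sesn2, which restrains mTORC1 when amino acids are short, Ppp1r15a, a feedback phosphatase subunit, and Nupr1, a stress-induced chromatin protein, had log2 fold changes of 0.29, -0.30 and -0.10, none past the threshold.

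Of the 11 ER chaperones and folding enzymes, 8 rose and none fell, with a median log2 fold change of 1.06. Hspa5 (chr2:34661982-34667559, plus strand, GRCm39) encodes BiP, the main ER Hsp70 chaperone that holds the sensors inactive, and was at 5601, 2088 and 2476 CPM in knockout against 1051, 1003 and 889 CPM in Cre-negative skin, a log2 fold change of 1.79 ± 0.44 (SE; edgeR adjusted p = 0.00844). Calr, the lectin chaperone calreticulin, was at 2259.8, 1245 and 1400.2 CPM against 547, 517 and 477 CPM and rose by 1.67 ± 0.34 (SE; edgeR adjusted p = 0.00268). Creld2, a secreted ER stress protein, was at 15.3, 15.1 and 17.98 CPM against 4.70, 4.60 and 5.76 CPM and rose by 1.69 ± 0.26 (SE; edgeR adjusted p = 0.00048). Every knockout library of these genes was above every Cre-negative one, and the spread was widest in Hspa5, whose first knockout library was more than 2-fold above the other two. Among the protein disulfide isomerases, Pdia6 was at 468, 486 and 493 CPM against 215, 237 and 242 CPM (log2 fold change 1.06 ± 0.23 SE, edgeR adjusted p = 0.0044) and Pdia4 at 178, 138 and 117 CPM against 54.8, 51.9 and 60.9 CPM (log2 fold change 1.37 ± 0.34 SE, edgeR adjusted p = 0.00966). Manf, a secreted factor retained in the ER by BiP, Dnajc3, an ER co-chaperone, and Canx, the membrane lectin chaperone calnexin, had log2 fold changes of 1.03, 0.75 and 0.81, with edgeR adjusted p of 0.0417, 0.0257 and 0.0499. Canx sat at the threshold and did not pass with the replicate number as a block. Dnajb9, Hyou1 and Sdf2l1, all ER chaperones or partners of BiP, had log2 fold changes of 0.87, 0.92 and 1.07 and did not pass. Sdf2l1 was at 62.7, 13.9 and 12.1 CPM in the knockout libraries against 13.1, 13.95 and 14.3 CPM, so that knockout library 1 carried its difference.

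Of the 4 genes that remove misfolded protein and the 4 sensors, none rose and 1 fell. Herpud1 (chr8:95113066-95122005, plus strand, GRCm39), a membrane protein of the ER-associated degradation complex, was at 129.9, 124 and 135 CPM in knockout and 256, 228 and 223 CPM in Cre-negative skin, a log2 fold change of -0.86 ± 0.26 (SE; edgeR adjusted p = 0.0223). Its 3 knockout libraries lay close together and below all Cre-negative ones. Edem1, Sel1l and Syvn1, which pick out and ubiquitinate misfolded glycoproteins, had log2 fold changes of 0.06, 0.02 and 0.43, none past the threshold. Among the sensors, Xbp1, the factor that IRE1 activates by splicing, was at 8.66, 28.5 and 38.3 CPM against 25.05, 37.3 and 52.97 CPM, with overlapping groups. Counts per gene do not separate its spliced from its unspliced form. Atf6, Ern1 and Eif2ak3 had log2 fold changes of -0.56, 0.21 and -0.16, and none of the 4 sensors passed the test.

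**Figure D2:**
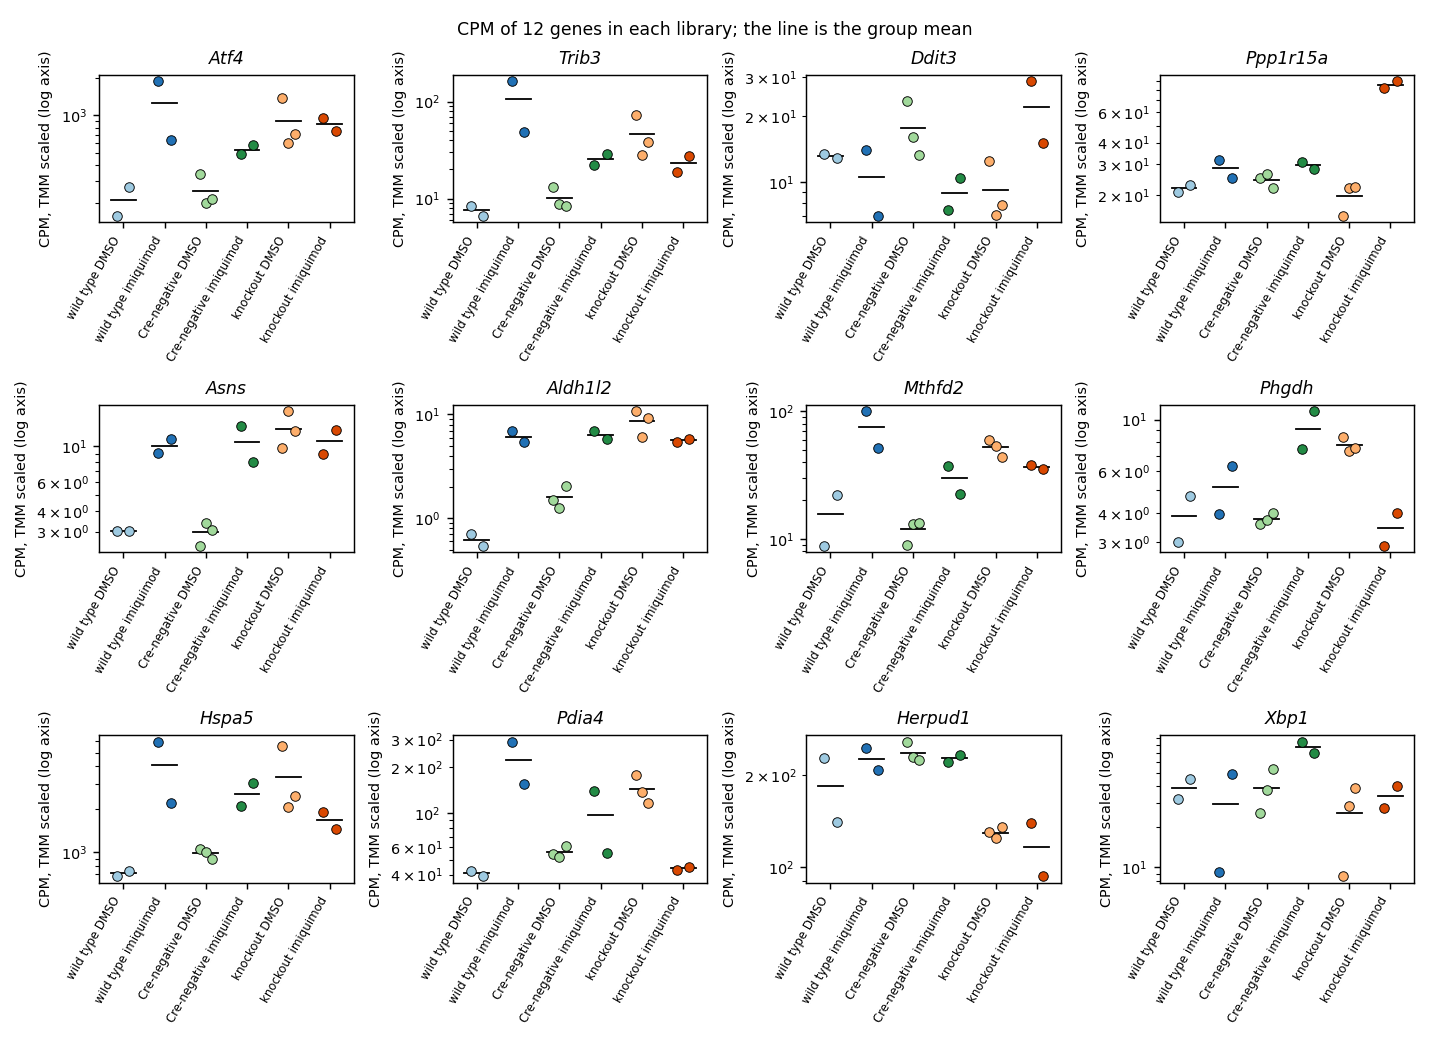
Each panel shows the scaled CPM (log axis) of 1 of 12 genes in every library, by group on the horizontal axis; points are libraries and lines are group means. Atf4, Trib3, Asns, Aldh1l2, Mthfd2 and Hspa5 lie higher in all imiquimod and knockout groups than in DMSO controls, Ppp1r15a lies highest in the 2 knockout imiquimod libraries (82.1 and 89.8 CPM), and Herpud1 is lowest in the knockout groups.

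The promoters of these genes are shown because the genes of 1 branch that moved together could be read against the elements known for each pathway. RefSeq promoters (GRCm38.p6, 250 bases before to 50 after the start) were held for 30 of the 34 genes, and not for Aldh1l2, Atf6, Hyou1 and Manf. The C/EBP-ATF response element, to which ATF4 dimers are known to bind, was searched on both strands as TGATGNAA and was found in 5 of 14 ATF4 branch genes, 1 of 16 ER branch genes and 3.97% of 32851 promoters. The ER stress element, known for ATF6 together with NF-Y, was searched as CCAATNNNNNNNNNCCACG and was found in none of the 14 ATF4 branch genes, 7 of 16 ER branch genes and 0.119% of all promoters. The unfolded protein response element, searched as TGACGTGG, was found in no promoter of the list and in 0.676% of all. None of these patterns contains another. Only these patterns were searched, so a gene without a match, such as Herpud1 for the ER stress element, may hold another form of an element. The matches are given 5′ to 3′ in the direction of the motif, with the fixed letters of the ER stress element or the whole C/EBP-ATF element in capitals and 5 bases on each side, and those on the other strand turned to that direction. A match is a description of these letters, not a site in use or a cause. The genes were chosen as known members of these pathways, so their shares with an element are not an independent result. For the C/EBP-ATF response element they are:
Asns: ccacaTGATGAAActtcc
Chac1: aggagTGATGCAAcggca
Nupr1: ctgtcTGATGCAAtctgg
Trib3: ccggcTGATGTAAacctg
Vldlr: agcgcTGATGCAActatt
Herpud1: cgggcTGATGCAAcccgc

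Asns and Trib3 rose in knockout DMSO skin, Chac1, Vldlr and Herpud1 fell, and Nupr1 did not pass the test, so that genes with the element went both ways. Counted from the transcription start, the Asns match began at -23, that of Chac1 at -193, that of Herpud1 at -112 and that of Trib3 at 15, just inside the transcript. For the ER stress element the matches are:
Hspa5: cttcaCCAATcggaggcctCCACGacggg
Calr: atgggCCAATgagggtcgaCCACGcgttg
Canx: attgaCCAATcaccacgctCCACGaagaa
Creld2: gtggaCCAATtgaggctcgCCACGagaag
Pdia6: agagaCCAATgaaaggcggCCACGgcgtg
Dnajc3: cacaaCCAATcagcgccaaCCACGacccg
Syvn1: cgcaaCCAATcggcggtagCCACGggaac

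The 6 chaperone and folding genes with an ER stress element, Hspa5, Calr, Canx, Creld2, Pdia6 and Dnajc3, were all among the 8 that rose. As 8 of the 11 chaperone and folding genes rose, this overlap says little, and no link between element and rise was tested. Syvn1, with the element, did not pass the test, and Pdia4, without a match in this window, rose. Dnajb9 and Sdf2l1, also without a match, did not pass. Manf, which rose, and Hyou1, which did not pass, had no promoter to search. To show the elements in place, the 250 bases before the start of Asns (minus strand) and of Hspa5 (plus strand) are given, with the match in capitals, from GRCm38.p6 chr6:7693210-7693459 and chr2:34771840-34772089:
Asns: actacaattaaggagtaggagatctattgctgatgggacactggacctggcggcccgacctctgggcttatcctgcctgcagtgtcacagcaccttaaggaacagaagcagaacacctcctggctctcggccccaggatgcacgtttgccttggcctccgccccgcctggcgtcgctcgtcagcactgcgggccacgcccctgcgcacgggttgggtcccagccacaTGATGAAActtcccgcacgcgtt
Hspa5: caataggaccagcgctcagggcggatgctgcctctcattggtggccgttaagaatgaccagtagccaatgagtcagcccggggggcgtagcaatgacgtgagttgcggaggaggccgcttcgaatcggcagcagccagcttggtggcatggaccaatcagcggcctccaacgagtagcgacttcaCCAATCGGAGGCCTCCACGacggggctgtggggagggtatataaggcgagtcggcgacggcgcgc

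Genes outside the 34, from lists of related pathways, were counted in the same contrast of knockout with Cre-negative DMSO skin, beside 14% of all genes rising and 15.7% falling. Of 30 other ATF4 and integrated stress response genes tested, 9 rose and 1 fell, with a median log2 fold change of 0.64. Slc7a11, the cystine importer, went from 1.17, 1.59 and 3.72 CPM to 233, 984 and 727 CPM (log2 fold change 8.24 ± 0.86 SE, edgeR adjusted p = 2.41e-05). Mthfd1l, the mitochondrial formate producer, went from 4.14, 8.10 and 6.70 CPM to 21.1, 63.5 and 49.7 CPM (log2 fold change 2.83 ± 0.51 SE, edgeR adjusted p = 0.00136). Cbs, which makes cystathionine, fell from 5.03, 4.82 and 4.15 CPM to 0, 0.582 and 0.169 CPM. Of 19 cytosolic aminoacyl-tRNA synthetases, which load tRNA and include ATF4 targets, 12 rose and none fell, led by Gars, Vars and Yars with log2 fold changes of 1.56, 1.53 and 1.56. Of 23 other serine, folate and one-carbon genes, 9 rose and 1 fell, led by Ahcy (2.25), Sfxn1 (1.83) and Gcsh (1.75). On the ER side, 8 of 26 other folding genes rose, led by P4hb (1.58), and 10 of 22 genes of translocation into the ER rose, led by Sec61a1 (1.46), with none falling in either list. Of 20 other ER degradation and membrane genes, 4 rose, led by H13 (1.15), a signal peptide peptidase, which is near the share over all genes. None of 16 other sensors and their partners passed the test. Of 12 genes of the mitochondrial unfolded protein response, 5 rose, led by the chaperonin Hspd1 (1.73).

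Sex differed between the groups of this contrast, and the number of calls depended on how it was handled. With sex as a term, 4 of the 34 genes passed, all of them rising (Aldh1l2, Asns, Creld2 and Psat1). With females alone, which left 1 Cre-negative library that was assumed to vary like the other groups, none passed, and the log2 fold changes of Aldh1l2, Asns, Psat1, Trib3, Atf4 and Hspa5 were 2.07, 2.06, 1.87, 2.47, 2.06 and 1.92, with the smallest edgeR adjusted p at 0.0506. Over all genes 979 were called in that fit and 1448 with the sex term, against 4752. Set against the 2 wild-type DMSO libraries, which were female like the knockout libraries but of another genotype, 13 genes rose and 2 fell, where 1805 of the 16027 genes tested rose and 2302 fell. Those that rose included 5 of the 6 enzymes, with Phgdh not past the threshold at 0.995, and Hspa5, Pdia4, Pdia6, Creld2, Calr and Manf. Chac1 and Nupr1 fell, with log2 fold changes of -1.81 and -1.67. Vldlr and Ddit4, which were lower than in Cre-negative skin, had log2 fold changes of 0.12 and 0.23 against wild-type skin, and Herpud1 had -0.50 without passing.

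Leaving out 1 of the 6 libraries at a time gave 12 to 18 genes past the threshold. The count was 12 without Cre-negative library 1, Cre-negative library 2 or knockout library 3. Over all genes, 3123 to 4294 passed in these fits, against 4752 with all libraries. Atf4, Trib3, Asns, Psat1, Shmt2, Mthfd2, Aldh1l2, Hspa5, Pdia4, Pdia6, Creld2 and Calr passed in each of these 6 fits. Without knockout library 1, which stood apart in scaling, Atf4, Trib3, Psat1 and Hspa5 still passed, with log2 fold changes of 1.39, 1.73, 1.35 and 1.23, while Chac1 (-1.09), Ddit4 (-0.98), Vldlr and Canx did not and Ddit3 and Dnajb9 did.

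Imiquimod raised 13 of the 34 genes in wild-type skin and none fell, where 21.4% of all genes tested passed, 9.59% rising and 11.8% falling. The 4 libraries were female, and the calls were the same 13 with sex as a term. Trib3 was at 162 and 49.1 CPM after imiquimod and 8.43 and 6.68 CPM in DMSO, a log2 fold change of 3.81 ± 0.59 (SE; edgeR adjusted p = 0.0011). Aldh1l2 was at 6.88 and 5.38 CPM against 0.702 and 0.545 CPM (log2 fold change 3.31 ± 0.45 SE, edgeR adjusted p = 0.00048). Atf4 was at 1875 and 636 CPM against 159 and 267 CPM (log2 fold change 2.56 ± 0.55 SE, edgeR adjusted p = 0.00699). All 3 genes were higher in both imiquimod libraries than in either DMSO library, with library 1 well above library 2 for Trib3 and Atf4. Asns, Psat1, Shmt2 and Mthfd2 rose by 1.73, 1.49, 2.44 and 2.28 on the log2 scale. Phgdh, at 3.96 and 6.31 CPM against 3.01 and 4.70 CPM, was the enzyme that did not pass (log2 fold change 0.39 ± 0.39 SE, edgeR adjusted p = 0.486).

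Hspa5 was at 5968 and 2206 CPM in wild-type imiquimod skin against 681 and 741 CPM in DMSO (log2 fold change 2.52 ± 0.55 SE, edgeR adjusted p = 0.00729). Pdia4 was at 291 and 154 CPM against 42.5 and 39.3 CPM (log2 fold change 2.44 ± 0.44 SE, edgeR adjusted p = 0.0024), and Calr at 3719 and 1740.1 CPM against 606 and 606 CPM (log2 fold change 2.17 ± 0.42 SE, edgeR adjusted p = 0.00377). The imiquimod values of these chaperones were above both DMSO values, again with library 1 the higher. Canx, Pdia6 and Creld2 also rose, by 1.74, 1.61 and 1.09, while Dnajb9, Dnajc3, Sdf2l1, Hyou1 and Manf did not pass. No degradation gene and no sensor passed. Of the regulators, Ddit3, Chac1, Sesn2, Vldlr, Ppp1r15a, Nupr1 and Ddit4 did not pass, with log2 fold changes from -0.93 to 0.48. Without imiquimod library 1, whose scaling factor was lowest, Atf4 was at 1.58, Psat1 at 1.20, Canx at 1.17, Creld2 at 1.03 and Hspa5 at 1.63, with edgeR adjusted p of 0.0931, 0.102, 0.0694, 0.117 and 0.08995. Leaving out each of the 4 libraries in turn leaves 1 library in a group. Trib3, Shmt2, Mthfd2, Aldh1l2, Pdia4, Pdia6 and Calr passed every time, and the other genes called did not. With library size alone, which shifted the median of all genes by -0.67, 551 genes rose and 3608 fell in place of 1537 and 1896, and 8 members rose and 2 fell (Ddit3 and Nupr1).

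In Cre-negative skin imiquimod raised 10 of the 34 genes and lowered 1, where 8.15% of all genes rose and 10.1% fell. All 6 amino acid and one-carbon enzymes rose, with a median log2 fold change of 1.36. Asns was at 13.3 and 8.01 CPM against 2.46, 3.39 and 3.06 CPM in DMSO (log2 fold change 1.83 ± 0.35 SE, edgeR adjusted p = 0.00299), and Phgdh at 7.46 and 10.8 CPM against 3.58, 3.72 and 4.01 CPM (log2 fold change 1.28 ± 0.35 SE, edgeR adjusted p = 0.0212). Aldh1l2 was at 6.89 and 5.85 CPM against 1.51, 1.26 and 2.04 CPM (log2 fold change 1.99 ± 0.36 SE, edgeR adjusted p = 0.00249). The imiquimod libraries of these enzymes were all above the 3 DMSO libraries. Atf4, at 489 and 579 CPM against 339, 199.6 and 214 CPM, and Trib3, at 22.1 and 28.99 CPM against 13.2, 8.75 and 8.31 CPM, did not pass (edgeR adjusted p = 0.124 and 0.068), although neither overlapped. Vldlr was the gene that fell, from 27.7, 26.9 and 13.8 CPM to 7.46 and 7.40 CPM (log2 fold change -1.62 ± 0.43 SE, edgeR adjusted p = 0.0212). Calr, Manf, Creld2 and Pdia6 rose by 1.44, 1.27, 1.12 and 0.97, and Hspa5 did not pass at 1.39 ± 0.47 (SE; edgeR adjusted p = 0.0545).

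Asns and Aldh1l2 passed whichever of the 5 Cre-negative libraries was left out, and fewer members were called in each of these fits than the 11 of the full fit. The count was 3 without DMSO library 1 or 2 and 6 without DMSO library 3. Over all genes, too, each of these fits called fewer than the 2921 of the full fit. Among males alone, or with sex as a term, 5 genes rose (Aldh1l2, Asns, Creld2, Pdia6 and Phgdh) and Vldlr fell. Over all genes, 912 rose and 1326 fell among males alone, fewer than in the full fit. With library size alone, which shifted the median of all genes by -0.57, 537 genes rose and 3141 fell in place of 1307 and 1614, and 2 members rose (Aldh1l2 and Calr) and 4 fell (Chac1, Ddit3, Nupr1 and Vldlr).

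**Figure D3:**
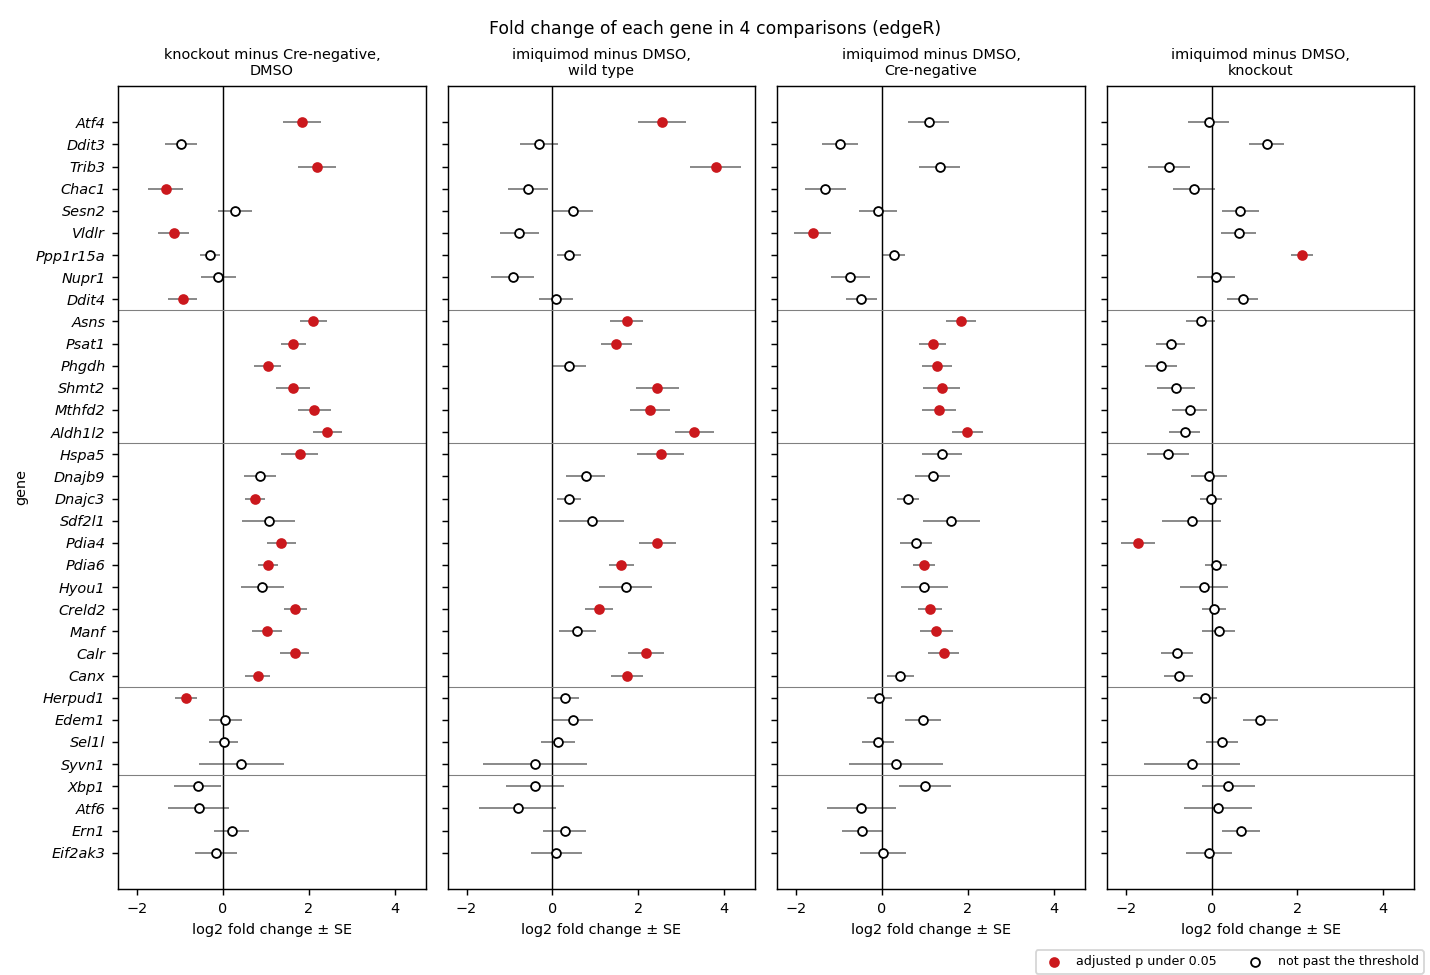
Log2 fold change with its standard error (horizontal axis) of each of the 34 genes (vertical axis) in 4 comparisons; filled red points have an edgeR adjusted p under 0.05, open points do not, and lines part the 5 groups of genes. The knockout in DMSO and imiquimod in wild-type and Cre-negative skin had 16, 13 and 10 genes that rose, and imiquimod in knockout skin had 1. The knockout in DMSO and imiquimod in Cre-negative skin were set against the same 3 Cre-negative DMSO libraries. The knockout in DMSO and imiquimod in knockout skin share the 3 knockout DMSO libraries, which enter with opposite sign. The panels of each pair are therefore not independent.

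In knockout skin imiquimod raised 1 of the 34 genes and lowered 1, where 8.56% of all genes rose and 2.52% fell. Ppp1r15a (chr7:45172341-45175692, minus strand, GRCm39), which encodes GADD34, the phosphatase subunit that reverses the phosphorylation of eIF2, was at 82.1 and 89.8 CPM after imiquimod and 15.3, 21.8 and 22.2 CPM in DMSO, a log2 fold change of 2.11 ± 0.26 (SE; edgeR adjusted p = 0.000266). In the other 9 libraries it was at 20.8 to 31.9 CPM, below both knockout imiquimod libraries. Pdia4 fell from 178, 138 and 117 CPM to 43.1 and 44.7 CPM (log2 fold change -1.71 ± 0.40 SE, edgeR adjusted p = 0.0148). Ddit3, at 28.8 and 15.1 CPM against 12.5, 7.08 and 7.86 CPM, missed the threshold (log2 fold change 1.29 ± 0.41 SE, edgeR adjusted p = 0.0583). The 6 enzymes had log2 fold changes from -1.17 to -0.25, none past the threshold, and were as follows in the imiquimod libraries. Asns was at 8.98 and 12.6 CPM, Aldh1l2 at 5.48 and 5.76 CPM and Phgdh at 2.89 and 3.98 CPM. The DMSO libraries were female and the imiquimod libraries male in this contrast, and with sex as a term none of the 34 genes passed, in a fit where 206 of all genes rose and 4 fell in place of 1372 and 404. Pdia4 did not pass without knockout imiquimod library 1 or 2 (edgeR adjusted p = 0.184 and 0.0616), and Ppp1r15a passed whichever of the 5 libraries was left out.

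Beside 9.59% of all genes rising and 11.8% falling with imiquimod in wild-type skin, the pathway lists had 11 of 19 aminoacyl-tRNA synthetases (led by Hars at 1.87, Farsb at 1.81 and Gars at 1.58), 6 of 26 other ER folding genes (led by P4hb at 1.88) and 6 of 22 translocation genes (led by Sec61a1 at 1.94). None of these fell. Of 30 other integrated stress response genes, 4 rose and 4 fell, near that share in both directions, among them Stc2, a secreted glycoprotein, at 3.88, Slc7a11 at 5.52 and Cbs at -4.03. In Cre-negative skin, where 8.15% of all genes rose, 5 of the 19 synthetases rose, led by Gars at 1.36, and 4 of the 26 folding and 5 of the 22 translocation genes. Slc7a11 went from 1.17, 1.59 and 3.72 CPM to 359.5 and 120.1 CPM there, and Cbs from 5.03, 4.82 and 4.15 CPM to 0.287 and 0 CPM. In knockout skin, where 8.56% of all genes rose and 2.52% fell, none of the synthetases rose and 3 fell (Hars, Rars and Sars, at -1.25, -1.12 and -1.51). The genes that rose there were Jdp2 (3.29), Gdf15, a stress-induced cytokine (2.31), Cebpb, a partner of ATF4 (1.46), the ER oxidase gene Ero1a (1.32) and Bcl2l11 (2.82), which encodes the death factor BIM. Macrophage markers moved with the last contrast, with 7 of 10 rising, and neutrophil markers with all 3, with 9 of 12 rising in each.

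Knockout and Cre-negative skin, both after imiquimod and all male, differed in 2 of the 34 genes, where 11.6% of all genes were higher in the knockout and 6.33% lower. With library size alone, 2443 genes were higher and 496 lower in place of 1852 and 1014, and 2 members were higher (Ddit3 and Ppp1r15a) and none lower. Ppp1r15a was higher, at 82.1 and 89.8 CPM against 30.99 and 28.4 CPM (log2 fold change 1.53 ± 0.29 SE, edgeR adjusted p = 0.00381), and passed under every alternative tried. Phgdh was lower, at 2.89 and 3.98 CPM against 7.46 and 10.8 CPM (log2 fold change -1.42 ± 0.39 SE, edgeR adjusted p = 0.0248), and did not pass without Cre-negative library 2 (-1.08) or knockout library 1 (-1.20). No ER branch gene passed, with a branch median of -0.25. Herpud1, at 139 and 93.6 CPM against 220.4 and 232 CPM, missed the threshold (log2 fold change -0.96 ± 0.32 SE, edgeR adjusted p = 0.0503). Pdia4, at 43.1 and 44.7 CPM against 140.2 and 55.2 CPM, did not pass (log2 fold change -1.15 ± 0.42 SE, edgeR adjusted p = 0.0751) and was lower, with an adjusted p of 0.0127 by the same test, when the 2 libraries high in 18S RNA were left out, among them Cre-negative imiquimod library 2. Of 30 other integrated stress response genes, 3 were higher and 2 lower, near the share over all genes, led by Jdp2, a repressor of the AP-1 family, at 122 and 50.1 CPM against 2.58 and 4.24 CPM (log2 fold change 4.63 ± 0.58 SE, edgeR adjusted p = 0.000356), and of the sensors' partners Bcl2l11 was at 63.8 and 41.4 CPM against 4.59 and 3.63 CPM (log2 fold change 3.69 ± 0.36 SE, edgeR adjusted p = 9.42e-05).

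The response to imiquimod itself, as the interaction of treatment with genotype, differed between knockout and Cre-negative skin in 13 of the 34 genes, with 3 more positive and 10 more negative in the knockout. Over all genes tested, 23.6% differed, 14% as more positive and 9.63% as more negative. All 6 enzymes were more negative, with a median difference of -2.18 on the log2 scale, from -2.61 ± 0.52 (SE; edgeR adjusted p = 0.00446) for Aldh1l2 to -1.84 ± 0.57 (SE; edgeR adjusted p = 0.0347) for Mthfd2. Trib3 (-2.33), Hspa5 (-2.41), Pdia4 (-2.52) and Calr (-2.24) were also more negative. Ddit3 (log2 fold change 2.26 ± 0.59 SE, edgeR adjusted p = 0.0158), Vldlr (log2 fold change 2.25 ± 0.59 SE, edgeR adjusted p = 0.0163) and Ppp1r15a (log2 fold change 1.83 ± 0.37 SE, edgeR adjusted p = 0.00518) were more positive. Ddit3 went from 23.5, 16.1 and 13.3 CPM to 7.46 and 10.4 CPM in Cre-negative skin and from 12.5, 7.08 and 7.86 CPM to 28.8 and 15.1 CPM in knockout skin, so that the first pair of groups moved down and the second up. Psat1 was at 83.9, 96.1 and 70.8 CPM and 160.3 and 219 CPM in Cre-negative skin and at 360.4, 207 and 217 CPM and 120.3 and 149 CPM in knockout skin, where the DMSO libraries were the higher ones. Outside the list, 10 of 19 aminoacyl-tRNA synthetases and 9 of 22 ER translocation genes were more negative, and none was more positive.

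Psat1, Phgdh, Aldh1l2 and Ppp1r15a kept this difference with sex as a term, and Ppp1r15a, Psat1, Phgdh, Aldh1l2 and Pdia4 kept it whichever of the 10 libraries was left out. Without knockout imiquimod library 1, which leaves 1 library in that group, no other member passed. More members passed in the other 9 fits. Over all genes, each of these fits called fewer than the 3785 of the full fit. With library size alone, which shifted the median of all genes by 0.74, 3650 genes were more positive and 511 more negative in place of 2242 and 1543, and 5 members went each way.

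Mean levels over each group of genes, in log2 CPM (prior count 2) relative to wild-type DMSO skin, set the enzymes beside the chaperones in each library. The enzymes stood at 0.27 to 0.51 in Cre-negative DMSO skin, 1.80 to 2.05 in wild-type imiquimod, 1.84 to 1.87 in Cre-negative imiquimod, 2.07 to 2.41 in knockout DMSO and 1.42 to 1.56 in knockout imiquimod skin. The chaperones stood at 0.14 to 0.26, 1.28 to 1.49, 1.13 to 1.32, 1.26 to 1.34 and 0.94 to 0.96 in the same order. In both groups of genes the knockout DMSO libraries reached the level of imiquimod-treated control skin, and the knockout imiquimod libraries were below every other imiquimod library. The regulators stood at -0.08 to 0.41 in Cre-negative DMSO skin, 0.25 to 0.69 in wild-type imiquimod, -0.12 to -0.03 in Cre-negative imiquimod, 0.09 to 0.12 in knockout DMSO and 0.50 to 0.75 in knockout imiquimod skin, an order unlike that of the enzymes they are grouped with. Degradation genes ranged from -1.28 to 0.56 with overlapping groups, and sensors from -1.18 to 0.96. Sensors stood at -0.51 to -0.40 in wild-type imiquimod, -0.06 to 0.06 in wild-type DMSO and 0.21 to 0.87 in Cre-negative DMSO skin, without overlap. Their knockout DMSO range, -1.18 to 0.81, overlapped every other group.

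As whole branches, the ATF4 branch minus the ER branch was -0.08 to 0.78 in knockout DMSO libraries, -0.24 to 0.31 in Cre-negative DMSO libraries, 0.11 to 0.65 in wild-type imiquimod, -0.39 to 0.03 in Cre-negative imiquimod and 0.14 to 0.46 in knockout imiquimod libraries. The groups overlapped between knockout and Cre-negative DMSO skin and did not overlap between knockout and Cre-negative imiquimod skin. The enzymes minus the regulators of their own branch differed more, with -0.15 to 0.48 in Cre-negative DMSO, 1.36 to 1.55 in wild-type imiquimod, 1.87 to 1.99 in Cre-negative imiquimod, 1.96 to 2.28 in knockout DMSO and 0.67 to 1.06 in knockout imiquimod libraries. These means are descriptions of the libraries and were not tested.

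**Figure D4:**
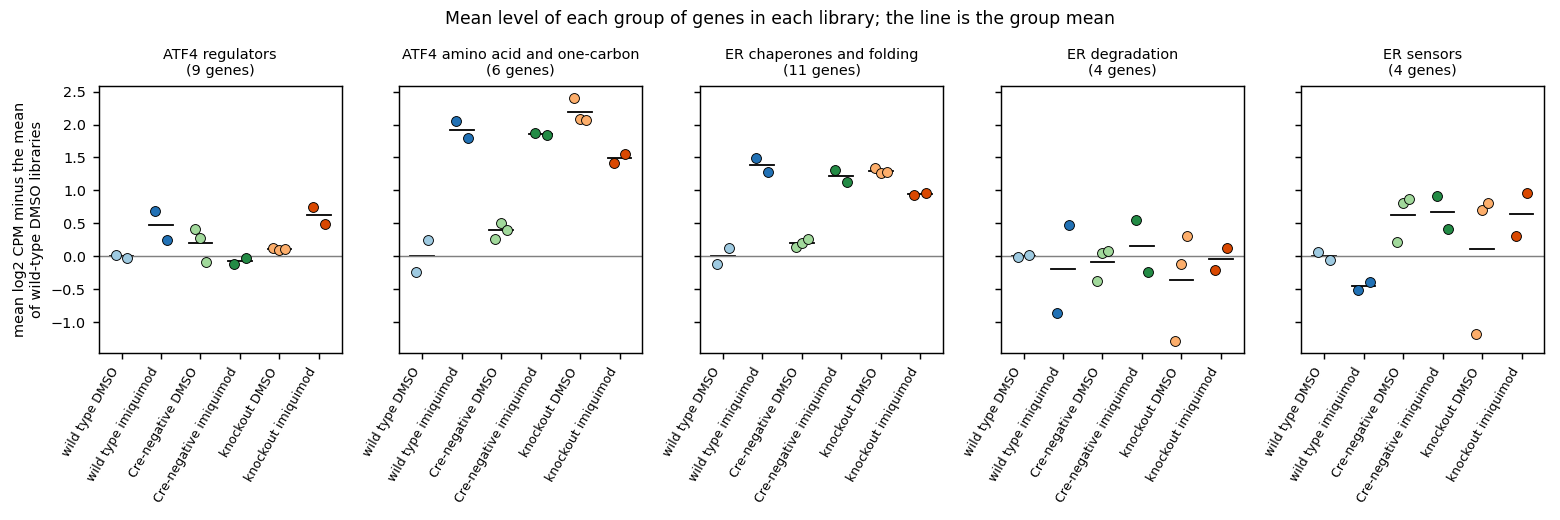
Mean log2 CPM of each of 5 groups of genes (panels, with the number of genes) in every library, relative to wild-type DMSO skin (vertical axis), by group (horizontal axis); points are libraries and lines are group means. Enzymes and chaperones are raised in every imiquimod and knockout library, with knockout imiquimod libraries the lowest of them (1.42 to 1.56 and 0.94 to 0.96). Regulators lie at 0.50 to 0.75 in knockout imiquimod and -0.12 to -0.029 in Cre-negative imiquimod libraries, and degradation genes span -1.28 to 0.56 over all libraries.

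Between the 2 kinds of control, Cre-negative and wild-type DMSO skin, no gene of the list and 0% of all genes tested passed. At an unadjusted p under 0.05, edgeR listed 4 of the 34 genes (Aldh1l2, Ddit4, Nupr1 and Vldlr), DESeq2 listed the same number with none called, and voom listed 8 with Ddit4 called. Over all genes the share under that p was 6.99% by edgeR, 7.1% by DESeq2 and 14% by voom, and DESeq2 called 144 genes and voom 195. Vldlr was at 27.7, 26.9 and 13.8 CPM in Cre-negative and 9.93 and 9.06 CPM in wild-type skin, with the female Cre-negative library the lowest of its group. Ddit4 was at 155, 178 and 145 CPM against 53.7 and 88.6 CPM, and Nupr1 at 70.6, 78.7 and 71.3 CPM against 307 and 129 CPM. None of these groups overlapped. Aldh1l2 was at 1.51, 1.26 and 2.04 CPM against 0.702 and 0.545 CPM, and both were below every imiquimod and knockout library.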

How the data were processed

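Skin RNA was sequenced as 3′ tags (QuantSeq FWD), and the authors deposited 1 table of raw counts per gene with no normalisation. Per the submitters' processing notes, STAR, featureCounts and DESeq2 were used, with builds GRCm38 and GRCm39, and no versions or roles are given in the sources used here. The deposited length column was not used for values. Gene coordinates are those of the table. They differ from the GRCm38.p6 coordinates of the RefSeq promoters and are given as GRCm39, the other build named.

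From the counts, edgeR 4.0.16 in R 4.3.3 kept 16027 of 56953 genes (filterByExpr by group), scaled libraries by the trimmed mean of M values (TMM) and fitted 1 quasi-likelihood model with a mean per group to all 14 libraries. P-values were adjusted by Benjamini-Hochberg over all genes tested, with a threshold of 0.05. CPM values are TMM-scaled, SE is the log2 fold change divided by the square root of F, and levels are not compared between genes. The code was tested on simulated counts. Alternatives were DESeq2 1.42.0, voom with sample quality weights (limma 3.58.1), other scalings and filters, only the groups compared, a replicate block, a sex term, 1 sex, and leaving out each library or the 2 libraries with over 15% 18S ribosomal RNA. Leaving out the 3 libraries with a TMM factor under 0.75, crossed pairing and wild-type controls for the knockout were added after seeing the data.

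Members and lists were chosen with earlier results of these data known. All 34 members are named, and from each pathway list up to 3 genes with the smallest p in a comparison past the threshold, with a few marker genes. Of 20 aminoacyl-tRNA synthetases, 19 were matched by symbol or synonym. Libraries of knockout and Cre-negative DMSO skin with the same number deviated together weakly (r = 0.26, 0.10 and 0.17 for numbers 1, 2 and 3). The labels give only the number and do not say whether it marks pairs. The reported fit holds no pairing, and the replicate number entered as a block only in an alternative fit.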

Additional observations from a re-analysis of the deposited data

Results flagged for a closer look

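The response to imiquimod differed between knockout and Cre-negative skin in 13 of the 34 genes, by edgeR's test of the interaction with Benjamini-Hochberg adjustment over all genes. The difference, as the log2 fold change with imiquimod in knockout skin minus that in Cre-negative skin, was positive for Ddit3 (2.26), Vldlr (2.25) and Ppp1r15a (1.83). It was negative for the 6 amino acid and one-carbon enzymes Asns (-2.09), Psat1 (-2.14), Phgdh (-2.46), Shmt2 (-2.22), Mthfd2 (-1.84) and Aldh1l2 (-2.61), for Trib3 (-2.33), and for the chaperone and folding genes Hspa5 (-2.41), Pdia4 (-2.52) and Calr (-2.24). Over all genes tested, 23.6% differed in either direction. In the knockout, the DMSO libraries were female and the imiquimod libraries male, and 4 of the 13 genes (Psat1, Phgdh, Aldh1l2 and Ppp1r15a) passed with sex as a term. The part of sex in the others was not tested beyond that fit.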

How the results depend on the processing

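Settings were compared for the count of members called, for each branch's median log2 fold change and for the mean ATF4 branch minus the mean ER branch. Of these values 364 stayed close to the reported one and 83 moved. Of the values of single genes, 4046 kept their side of the threshold, 243 lost it, 95 gained it and 2, of genes called in the reported fit, turned sign: Ddit4 (0.23) and Vldlr (0.12) in knockout DMSO skin set against wild-type controls. A change of sign was counted only for a called gene: of 3213 values of genes not called, 242 had the opposite sign, and none of those was called under the alternative. The cause was not tested except where a setting holds fewer libraries.

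With library size alone, the ATF4 and ER medians were 0.67 and 0.42 for knockout against Cre-negative DMSO skin, 0.65 and 0.13 for the same contrast after imiquimod, -0.14 and -0.030 for imiquimod in wild-type skin and 0.51 and 0.39 in Cre-negative skin (6 genes called). They were -0.30 and -0.16 for the difference in response, and the ATF4 median was -0.092 for imiquimod in knockout skin. A sex term left 4 genes in knockout DMSO skin, 6 for imiquimod in Cre-negative and 0 in knockout skin, 4 for the difference in response (ATF4 median -1.39), and an ATF4 median of 0.021 between the controls. With 1 sex the first 2 counts were 0 and 6, and the ATF4 median between the controls was 0.024.

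For knockout against Cre-negative skin after imiquimod, the count was 1 without a filter, 1 with only the groups compared and 5 with DESeq2. Over all genes, 3269 were called there without a filter and 3507 with DESeq2, in place of 2866. For imiquimod in knockout skin, DESeq2 called 5 members and voom 4, with 2432 of all genes called by DESeq2 in place of 1776. Voom gave an ATF4 median of -0.94 for the difference in response. Only the groups compared gave 17 members for imiquimod in Cre-negative skin, where 3633 of all genes were called in place of 2921. Between the controls, 2 genes were called without a filter (Nupr1 and Atf6) and 1 by voom, where 446 and 195 of all genes were called. Without the 2 libraries high in 18S RNA, the ATF4 median was 0.052 for the knockout after imiquimod, -0.42 for imiquimod in knockout skin and -0.67 for the difference in response, whose ER median was -1.22. Without the 3 libraries with low scaling factors, it was 0.073, -0.42 (4 genes called) and -0.56, with 0.90 for imiquimod in Cre-negative and 0.71 (ER 0.89) in wild-type skin. The branch difference for the response was then 0.76.

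With the replicate number as a block, 15 members rose and 5 fell in knockout DMSO skin, with no change of call besides Ddit3 and Canx. The block gave 1 higher and 2 lower members, Herpud1 added, for the knockout after imiquimod, and the ER median for imiquimod in Cre-negative skin was 1.21. Libraries with the same number had correlations from -0.19 to 0.32 in the other contrasts, and whether numbers mark pairs is not known in any contrast. Crossed pairing, chosen after seeing the data, gave 5 called members for the knockout after imiquimod and 13 for imiquimod in wild-type skin. Over all genes it called 3270 and 3408. A median over members in place of the mean gave branch differences of -0.19 and 1.23 for the knockout in DMSO and imiquimod, 1.03, -0.69 and 0.73 for imiquimod in wild-type, Cre-negative and knockout skin, and 1.42 for the response.

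Leaving out each library in turn gave counts of 12 to 18 for the knockout in DMSO, 1 to 2 after imiquimod, 8 to 13, 3 to 6 and 1 to 3 for imiquimod in wild-type, Cre-negative and knockout skin, and 5 to 13 for the response. ATF4 medians ran from 0.11 to 0.36 for the knockout after imiquimod (ER -0.48 to 0.051), 0.64 to 1.03 for imiquimod in wild-type skin (ER 0.36 to 0.87), 0.94 to 1.16 in Cre-negative and -0.46 to -0.17 in knockout skin, -1.43 to -0.70 for the response and 0.16 to 0.39 between the controls. Groups of 2 or 3 libraries, 5552954 counts in the shallowest, limit what could be called, and counts under 10 per library, as for Chac1 in some, carry wide counting error.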

Other observations

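The 3 libraries with the lowest scaling factors differed from their group partners in single ER genes. Syvn1, the ubiquitin ligase of ER-associated degradation, was at 0.989 and 27.97 CPM in the 2 wild-type imiquimod libraries and at 1.78, 22.8 and 31.7 CPM in the 3 knockout DMSO libraries, with library 1 the lowest of each group. Xbp1 was at 9.32 and 49.1 CPM and 8.66, 28.5 and 38.3 CPM in the same libraries, again with library 1 the lowest. Low values of Syvn1 were not confined to libraries with low factors. Syvn1 was at 4.64 and 23.6 CPM in knockout imiquimod and 6.32, 16.5 and 20.04 CPM in Cre-negative DMSO skin, where no library stood apart in scaling. In Cre-negative imiquimod skin Syvn1 was at 28.1 and 7.94 CPM, the lower value from the library with the low factor. Sdf2l1, an ER chaperone, was at 18.4 and 65.9 CPM in Cre-negative imiquimod skin and at 62.7, 13.9 and 12.1 CPM in knockout DMSO skin, and the high value of each group came from the library with the low factor. Atf6 was at 8.76 and 0.701 CPM in wild-type imiquimod skin, the lower value here from library 2, whose scaling factor was 0.946.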
